A study of Homo sapiens with 4 samples.

Results

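The regions described here are the H3K9me3 peaks of the large pericentromeric blocks of chromosomes 1, 9 and 16. They were measured in Ishikawa, an established cell line from a human endometrial cancer. A peak belongs to a block if its summit lies on chromosome 1 from 116500000 to 148300000, on chromosome 9 from 38100000 to 65900000 or on chromosome 16 from 31300000 to 51400000 (hg38). These limits use position only, and 312 of the 4950 peaks of both lists fell within them. Of these, 83 came from the cells labelled NC, whose treatment is given as none, and 229 from the cells labelled OE-KDM4A. The labels do not spell out either abbreviation. For each condition the labels list an H3K9me3 library and an input library, 1 of each, and 1 deposited peak list per H3K9me3 library was compared. No value here therefore has a replicate check, no test between conditions was made, and the 95% intervals are exact ones for counting error alone.

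Human satellites 2 and 3, long arrays of short tandem repeats built on a pentamer, form the heterochromatin blocks beside the centromeres of chromosomes 1, 9 and 16. Such arrays are known to be packed with nucleosomes trimethylated on lysine 9 of histone H3, a mark written by the SUV39H enzymes and bound by HP1 proteins. KDM4A is a demethylase that removes methyl groups from this lysine. In the hg38 assembly much of these blocks is unresolved, and a short read from one repeat copy can be placed on another. The position of a peak may therefore not name a single copy. No peak was assigned a repeat type here.

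The blocks also hold duplicated sequence, as a pair of microRNA genes of chromosome 9 shows over the 81 bases of their hairpins. MIR4477A (41233755 to 41233835, plus strand) and MIR4477B (63819574 to 63819654, plus strand) lie 22.6 Mb apart on either side of the centromere. Their 81-base hairpins are printed here because 3 peaks found in NC only lay within 5 kb of them and because each hairpin is the exact reverse complement of the other. The capitals mark the mature miRNA where RefSeq (GRCh38.p14) gives one.
MIR4477A: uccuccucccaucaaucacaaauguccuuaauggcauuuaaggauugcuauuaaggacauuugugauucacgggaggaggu
MIR4477B: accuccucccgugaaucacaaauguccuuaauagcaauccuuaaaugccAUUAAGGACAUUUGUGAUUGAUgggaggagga
The NC peaks lay 4169 and 3467 bp from MIR4477A (41229392 to 41229586 and 41230058 to 41230288) and 413 bp from MIR4477B (63818989 to 63819161, at the end of LINC00537). Their recovered pileups were 29, 22 and 28 fragments. No OE-KDM4A peak overlapped them.

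The first comparison asked how many peaks each list placed in the blocks. The blocks held 7.12% of the NC list (83 of 1165, 5.71 to 8.76) and 6.05% of the OE-KDM4A list (229 of 3785, 5.31 to 6.86). The ratio of OE-KDM4A to NC peaks was 2.76 (2.14 to 3.59) within the blocks and 3.29 (3.07 to 3.52) over all other peaks. The intervals of these shares overlapped, but the order depends on how peaks are counted. With peaks within 1 kb joined, the shares were 6.16% in NC (4.80 to 7.77) and 3.45% in OE-KDM4A (2.85 to 4.13), whose intervals do not overlap. With a −log10 q of 10 as the lower limit, the OE-KDM4A share was the higher one (17.4% against 15.2%).

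The numbers were then taken by chromosome. On chromosome 1 there were 27 NC peaks and 113 OE-KDM4A peaks, a ratio of 4.19 (2.73 to 6.63). On chromosome 9 the numbers were 25 and 50, a ratio of 2.0 (1.21 to 3.37), and on chromosome 16 they were 31 and 66, a ratio of 2.13 (1.37 to 3.38). The intervals of the chromosomes overlap. The gene-free stretches at the centromeres of chromosomes 4 and 10, taken with 5 Mb on either side, had ratios of 2.50 (66 and 165 peaks, 1.87 to 3.38) and 4.51 (43 and 194 peaks, 3.23 to 6.43). The ratio of chromosome 1 depends on how close peaks are counted, since it was 1.52 (0.874 to 2.70) after peaks within 1 kb of each other were joined. It was 16.7 (7.39 to 46.5) when peaks below a fold enrichment of 5 were left out, which left few NC peaks. Fold enrichment is a linear ratio of ChIP to control background, which the peak caller gives for the summit.

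The called bases differed more than the number of peaks. NC peaks covered 14426 bp of the blocks and OE-KDM4A peaks 80102 bp, a ratio of 5.55, against 3.40 over all other peaks. The ratio was 9.75 on chromosome 1 (4546 and 44319 bp), 4.63 on chromosome 16 (6095 and 28208 bp) and 2.0 on chromosome 9 (3785 and 7575 bp). The stretches of chromosomes 4 and 10 had ratios of 3.39 and 6.76, so a ratio above that of the blocks was also seen elsewhere.

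**Figure D1:**
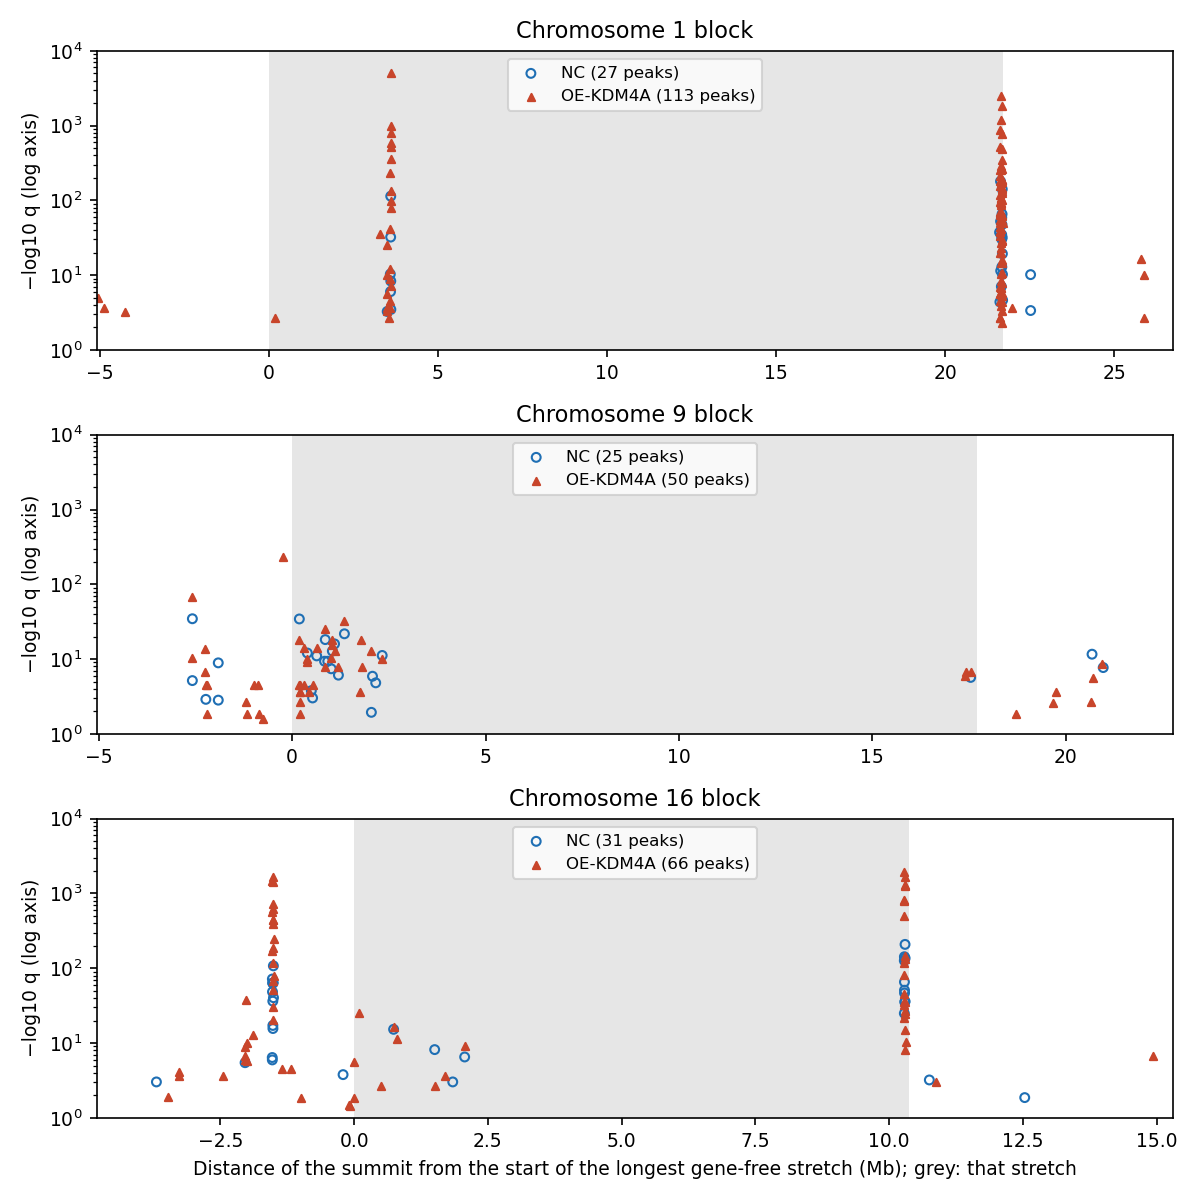
Peaks of the 3 blocks by distance of the summit from the start of the longest gene-free stretch (x axis, Mb) and by −log10 q (y axis, log scale), with NC as open circles, OE-KDM4A as triangles and the stretch in grey. Peaks of chromosomes 1 and 16 stand in narrow columns in both lists, while the 25 NC and 50 OE-KDM4A peaks of chromosome 9 are spread out.

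Peaks stood at the same few places in both lists on chromosomes 1 and 16. On chromosome 1 the longest gene-free stretch ran from 121571889 to 143299517, and it held 25 of 27 NC peaks and 106 of 113 OE-KDM4A peaks. The 1 Mb from 143 to 144 Mb alone held 18 NC peaks (66.7%) and 83 OE-KDM4A peaks (73.5%). On chromosome 16 the 1 Mb from 34 to 35 Mb held 13 of 31 NC peaks and 27 of 66 OE-KDM4A peaks, and with the 1 Mb from 46 to 47 Mb these bins held 77.4% and 74.2%. The share of a block in its 2 fullest bins was thus nearly the same in the lists on both chromosomes. On chromosome 9 the 2 fullest bins held 13 of 25 and 25 of 50 peaks, and peaks fell in 8 bins in NC and 11 in OE-KDM4A.

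Peaks with gaps of at most 10 kb, from either list, were grouped into clusters. There were 6 clusters of at least 5 peaks, and 4 of them held at least 5 NC peaks. These 4 spanned 157 kb in all and held 46 of the 83 NC peaks (55.4%) and 136 of the 229 OE-KDM4A peaks (59.4%). All 46 NC peaks in them overlapped an OE-KDM4A peak by at least 1 bp, against 34.7% in the whole NC list. Of the 136 OE-KDM4A peaks, 95 overlapped no NC peak, against 89.8% in the whole OE-KDM4A list. NC peaks covered 5.67% of the clusters and OE-KDM4A peaks 41.6%. Each of the 4 spans starts and ends at an OE-KDM4A peak, so the covered shares are of spans that this list set.

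The largest of the clusters lay on chromosome 1 from 143184645 to 143275858, a span of 91.2 kb at the right end of the gene-free stretch. It held 18 NC peaks, which covered 3.33% of the span, and 82 OE-KDM4A peaks, which covered 36.3%. The other large cluster of chromosome 1, from 125163964 to 125184508, held 6 NC and 16 OE-KDM4A peaks, with 5.21% and 41.2% of its 20.5 kb covered. On chromosome 16 the cluster from 34571513 to 34596192, left of the gene-free stretch, held 12 and 18 peaks, and the cluster from 46380685 to 46401648 held 10 and 20. There the covered shares were 9.83% and 11.4% in NC and 49.5% and 55.7% in OE-KDM4A. In each of the 4 clusters the OE-KDM4A list thus had more peaks, a wider widest peak and more covered bases, within limits set by its own peaks.

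The other 2 clusters held 1 NC peak each. They reached the minimum of 5 peaks only through OE-KDM4A peaks, so their numbers do not compare the lists. The first, on chromosome 1 from 125070180 to 125081223, had 5 OE-KDM4A peaks, and the second, on chromosome 9 from 43321657 to 43347120, had 7. The chromosome 9 cluster had no peak with more than 1 summit in either list.

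**Figure D2:**
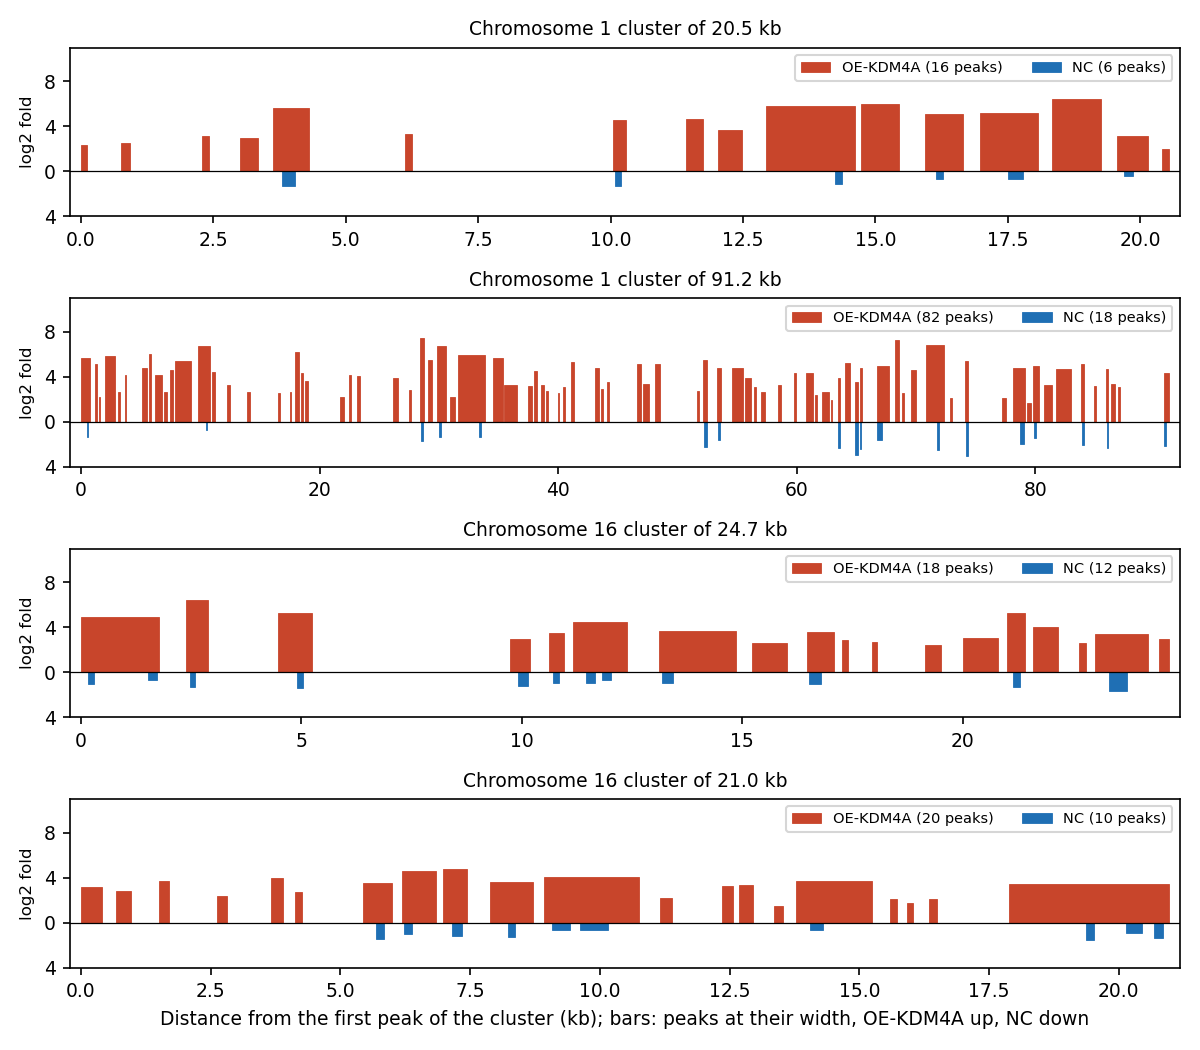
Peaks of the 4 clusters with at least 5 NC peaks, drawn at their width along the distance from the first peak of the cluster (x axis, kb), with the log2 fold enrichment of OE-KDM4A upward and of NC downward (y axis). Each NC peak sits under an OE-KDM4A peak, and the OE-KDM4A bars are mostly wider and taller.

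Widths were compared next. A peak cannot be shorter than a limit of the caller, and the shortest measured 121 bp (NC) and 108 bp (OE-KDM4A). The median width of block peaks was 145 bp in NC (quartiles 133 and 192) and 186 bp in OE-KDM4A (138 and 369), against 142 and 134 bp over all other peaks. The medians were 145 and 247 bp on chromosome 1, 155 and 199 bp on chromosome 16, and 141 and 139.5 bp on chromosome 9. OE-KDM4A peaks were thus wider on chromosomes 1 and 16, and the chromosome 9 medians were within 2 bp of each other. Wider OE-KDM4A peaks were not limited to the blocks. The medians in NC and OE-KDM4A were 150 and 172 bp on the stretch of chromosome 4, and 141 and 170.5 bp on that of chromosome 10. Of the 229 OE-KDM4A block peaks, 40 measured at least 500 bp, all of them on chromosomes 1 and 16, and 1 of 83 NC block peaks did. In the whole lists, 113 of 3785 OE-KDM4A and 5 of 1165 NC peaks were that wide. On the stretches of chromosomes 4 and 10 this held for 18 of 165 and 17 of 194 OE-KDM4A peaks.

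The single widest peak of each list lay on chromosome 16. The widest OE-KDM4A block peak ran from 46398575 to 46401648, a width of 3074 bp with 10 summits. It overlapped 3 separate NC peaks of 155, 310 and 168 bp. It was followed on that chromosome by 46389603 to 46391445 (1843 bp, 7 summits). On chromosome 1 the widest OE-KDM4A peaks were 143216271 to 143218529 (2259 bp, 7 summits) and 125176903 to 125178578 (1676 bp, 6 summits). The widest NC block peak, on chromosome 16 from 46390296 to 46390847, measured 552 bp with 3 summits. On chromosome 1 the widest NC block peak measured 358 bp. No chromosome 9 peak was wider than 231 bp in the NC list or 342 bp in the other.

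Each line of the lists is 1 summit, a local maximum of the pileup, and a peak can hold several. In the blocks, 9 of 83 NC peaks (10.8%, 5.08 to 19.6) and 53 of 229 OE-KDM4A peaks (23.1%, 17.8 to 29.2) had more than 1 summit. Over the whole lists the shares were 4.55% and 5.68%. On chromosome 1 the shares were 11.1% in NC (3 of 27, 2.35 to 29.2) and 30.1% in OE-KDM4A (34 of 113, 21.8 to 39.4). On chromosome 16 they were 19.4% (6 of 31, 7.45 to 37.5) and 28.8% (19 of 66, 18.3 to 41.3). Chromosome 9 had none, with 0 of 25 NC peaks and 0 of 50 OE-KDM4A peaks, which allows shares of up to 12% and 6.0%. The OE-KDM4A intervals of chromosomes 1 and 16 and the NC interval of chromosome 16 lie above the share of their whole list. The stretches of chromosomes 4 and 10 also had high OE-KDM4A shares, 20.6% (14.7 to 27.6) and 17.0% (12 to 23.1). Within a peak, neighbouring summits lay a median of 244.5 bp apart in OE-KDM4A (130 distances, quartiles 204 and 298.5) and 193 bp apart in NC (11 distances).

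**Figure D3:**
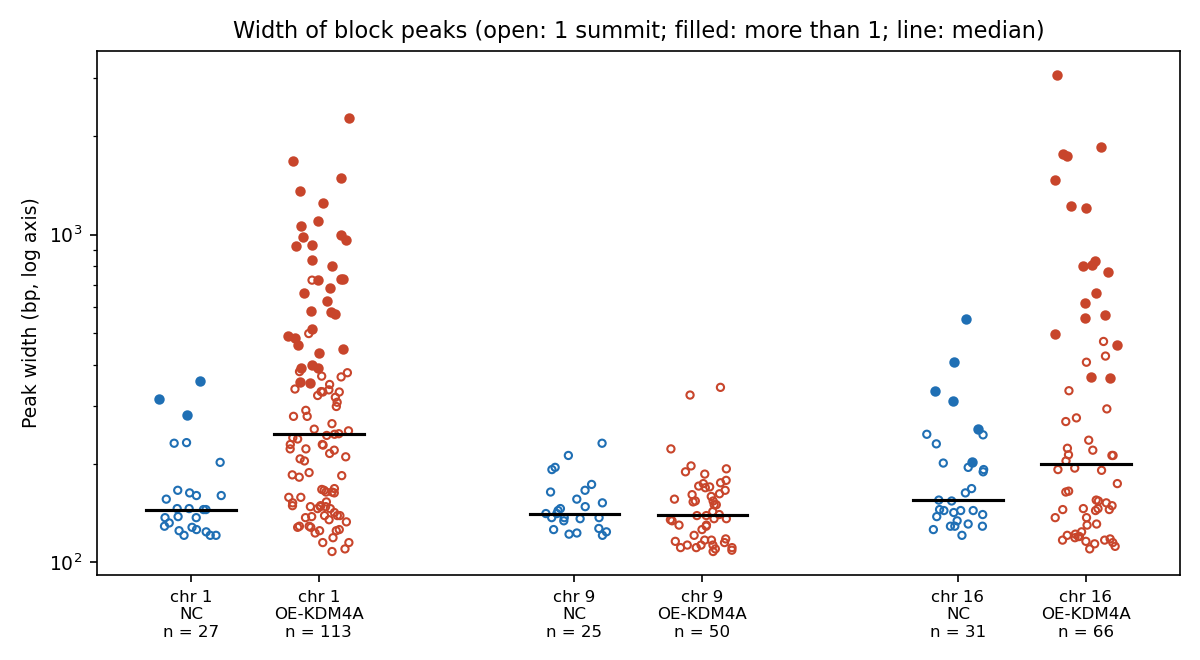
Width of each block peak (y axis, bp, log scale) by chromosome and list, open for 1 summit and filled for more, with a line at the median. The OE-KDM4A peaks of chromosomes 1 and 16 reach 2259 and 3074 bp, while no chromosome 9 peak passes 342 bp or has more than 1 summit.

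Spacing was taken as the gap from the end of a peak to the start of the next in the same list. The median gap in the blocks was 5.56 kb in NC and 0.927 kb in OE-KDM4A, against 534 and 272 kb over all other peaks. Among peaks of a fold enrichment of at least 5, the medians were 101.5 kb in NC and 0.914 kb in OE-KDM4A. Most NC peaks left by that limit lay on chromosome 9, and those left on chromosome 1 all lay between 143248150 and 143270758. With all peaks, the median gap on chromosome 1 was 3.55 kb (quartiles 1.35 and 8.89) in NC and 0.511 kb (0.304 and 1.29) in OE-KDM4A. There, 78 of 112 OE-KDM4A gaps but 4 of 26 NC gaps were under 1 kb. On chromosome 16 the medians were 2.70 and 0.847 kb, with 11 of 30 and 35 of 65 gaps under 1 kb. Chromosome 9 peaks stood far apart in both lists, with medians of 104 and 57.7 kb and 2 gaps under 1 kb in each. Peak number and spacing are not independent, since more peaks in a block of fixed length stand closer on average. The stretch of chromosome 10, with 194 OE-KDM4A peaks, had median gaps of 11 kb in NC and 1.13 kb in OE-KDM4A.

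The lists were then compared by place. Of the NC block peaks, 66 of 83 (79.5%, 69.2 to 87.6) overlapped an OE-KDM4A peak, against 34.7% in the whole NC list. Of the OE-KDM4A block peaks, 61 of 229 (26.6%, 21.0 to 32.9) overlapped an NC peak, against 10.2% in the whole OE-KDM4A list. With both lists limited to a fold enrichment of at least 5, the OE-KDM4A share was 10.7% (6.66 to 16). The whole-list share at that limit was not computed, and the 10.2% is for lists without it. The NC share was 92.6% on chromosome 1 (25 of 27, 75.7 to 99.1), 83.9% on chromosome 16 (26 of 31, 66.3 to 94.5) and lowest on chromosome 9 (15 of 25, 38.7 to 78.9%). The stretches of chromosomes 4 and 10 had NC shares of 93.9% and 79.1%, so a high share was not limited to the 3 blocks.

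The 17 block peaks found in NC only were weaker than those found in both lists. Their −log10 q had a median of 3.78 and reached 11.6, against a median of 23.4 for the 66 NC peaks found in both lists. The median of the whole NC list, 3.83, was close to theirs. On chromosome 1 they were a pair of neighbours at 144102544 to 144102703 and 144103651 to 144103796, which stood on control backgrounds of 25.1 and 51.1. The 5 on chromosome 16 had pileups of 7 to 10 fragments. The other 10 lay on chromosome 9, where the strongest was the peak beside MIR4477B.

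The 168 block peaks found in OE-KDM4A only had a median −log10 q of 10.1, against 187 for those found in both lists. The strongest lay on chromosome 1 from 125182304 to 125183224, with 3 summits, a fold enrichment of 89.1 and a pileup of 624 over a background of 6.02. It was followed by 125178689 to 125179419 (fold 64.0, pileup 561). Both lay inside the cluster shared with NC, within 1 kb of NC peaks. The next, 143252927 to 143253257 (fold 153, pileup 396), had no NC peak within 1 kb. On chromosome 16 the strongest were 34586726 to 34587530 (fold 5.97, pileup 1082) and 34593107 to 34593676 (fold 16.4, pileup 474), again within 1 kb of an NC peak. Of the 229 OE-KDM4A block peaks, 91 (39.7%) lay on or within 1 kb of an NC peak, against 14.2% in the whole list.

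On chromosome 9 the strongest peak found in OE-KDM4A only stood apart from its neighbours. It ran from 42900329 to 42900454 within LOC112268044, a predicted protein-coding gene, and 4.59 kb from the pseudogene ANKRD20A7P. Its pileup of 853 fragments over a background of 214 gave a fold enrichment of 3.97 and a −log10 q of 232. The next strongest on that chromosome among those found in OE-KDM4A only, 44908180 to 44908313, had a pileup of 25, a background of 1.56 and a −log10 q of 17.9. The highest pileup of any NC peak of the block was 61.

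Fold enrichment joins 2 quantities that can be separated. The ChIP pileup, which counts the fragments stacked at a summit, and the background of the control there were recovered from the authors' fold and p of each peak. Pileups are not scaled to the depth of the libraries, which no source used here gives, so they are read against the regions called in both lists elsewhere in the genome. For each of the 66 NC block peaks that overlapped an OE-KDM4A peak, the overlapping peak of highest −log10 q was taken, which can favour OE-KDM4A, and 61 different OE-KDM4A peaks were used.

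The shared region with the highest −log10 q in OE-KDM4A lay on chromosome 1, where its NC peak had rank 3 by that measure. In NC the peak from 125180112 to 125180248 had a pileup of 2695 over a background of 1660, a fold enrichment of 1.62. In OE-KDM4A the peak from 125179900 to 125180625 had a pileup of 4489 over a background of 130, a fold enrichment of 34.3. The pileup was higher and the background lower in OE-KDM4A, and the background differed by more. At 143213182 to 143213337 the NC pileup was 871 over 268 (fold 3.24), and the OE-KDM4A peak from 143213042 to 143213379 had 1301 over 6.22 (fold 180). At 143264577 to 143264736 the NC values were 918 over 340 (fold 2.70), and those of OE-KDM4A were 1675 over 51.4 (fold 32.0).

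On chromosome 16, 3 regions are given as examples. Their backgrounds were 8.21, 9.90 and 22.4 times as high in NC, above the median ratio of 4.03 at the 26 shared regions of the block. At the NC peak of highest −log10 q in the block, 46400046 to 46400200, the ratio was 2.61. At 46387829 to 46388020 the NC pileup was 1273 over a background of 556 (fold 2.29), and the OE-KDM4A peak from 46387659 to 46388130 had 1901 over 67.7 (fold 27.7). At 34592666 to 34592807 the NC values were 848 over 347 (fold 2.44), and those of OE-KDM4A, from 34592510 to 34592935, were 1416 over 35 (fold 39.3). At 34573978 to 34574106 they were 561 over 227 in NC (fold 2.47) and 948 over 10.1 in OE-KDM4A (fold 85.4). Other regions of the block went the other way, with a lower OE-KDM4A pileup at 4 of its 26 shared regions and a higher background at 2.

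On chromosome 9 pileups were low and close to each other. At 40560282 to 40560447, within the pseudogene LOC102724580, the NC pileup was 61 over 5.96 (fold 8.91), and the OE-KDM4A pileup 52 over 0.905 (fold 27.8). At 44490879 to 44491015 both lists had a pileup of 36, over 2.98 in NC (fold 9.29) and 1.56 in OE-KDM4A (fold 14.5). At 43325569 to 43325712 both had a pileup of 43, and here the background was the lower one in NC, at 2.27 against 6.22, so that fold enrichment was 13.5 in NC and 6.09 in OE-KDM4A.

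Of the 66 shared regions, 61 had the higher fold enrichment in OE-KDM4A, against 78.7% of shared regions in the whole series. It was higher at 25 of 25 on chromosome 1, at 24 of 26 on chromosome 16 and at 12 of 15 on chromosome 9. The median ratio was 9.76 on chromosome 1, 6.27 on chromosome 16 and 1.26 on chromosome 9, and 1.75 at the 338 shared regions outside the blocks. It was 3.70 on chromosome 4 and 2.65 on chromosome 10. At 51 shared regions outside the blocks it was 3.80. These had an NC background of at least the median of chromosomes 1 and 16, and that choice can itself raise the ratio.

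The ChIP pileup was higher in OE-KDM4A at 25 of 25 shared regions of chromosome 1 and at 22 of 26 of chromosome 16, but at 1 of 15 of chromosome 9, where it was equal at 4 and lower at 10. In the whole series it was higher at 49.0%. The median ratio of OE-KDM4A to NC was 1.70, 1.53 and 0.926 on chromosomes 1, 16 and 9, and 0.956 outside the blocks. The stretches of chromosomes 4 and 10 had ratios of 1.04 and 1.16. At the 51 regions of high NC background it was 1.04, with 29 regions higher and 22 lower. Among pairs whose summits lay within 100 bp, the ratio was 1.70 on chromosome 1 (23 of 23 higher), 1.49 on chromosome 16 (14 of 17) and 0.926 on chromosome 9 (1 of 15). Pileups at shared regions of chromosomes 1 and 16 were thus mostly higher in the OE-KDM4A library, which was not so on chromosome 9. Over the 3 blocks together, the median log2 difference was 0.62 with all peaks and -0.10 with those of a fold of at least 5. Most pairs left by that limit lay on chromosome 9. On chromosome 1 each pair left had the higher pileup in OE-KDM4A. The only pair left on chromosome 16 had the lower one there (26 fragments in NC, 20 in OE-KDM4A).

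The control background was lower in OE-KDM4A at 25 of 25 shared regions of chromosome 1, 24 of 26 of chromosome 16 and 13 of 15 of chromosome 9, against 81.4% in the whole series. The median ratio of NC to OE-KDM4A was 7.63, 4.03 and 1.92, and 2.36 outside the blocks. At the 51 shared regions elsewhere with a high NC background it was 4.41. Their choice by NC background raises this ratio in advance. Their median NC background was 219, against 26.8 at the shared regions of chromosome 1 and 259 at those of chromosome 16. The lower background moves with the higher fold enrichment, and its part in the number and width of the OE-KDM4A peaks was not tested. With 1 input library per condition, a difference between the inputs and a difference between the conditions cannot be told apart.

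**Figure D4:**
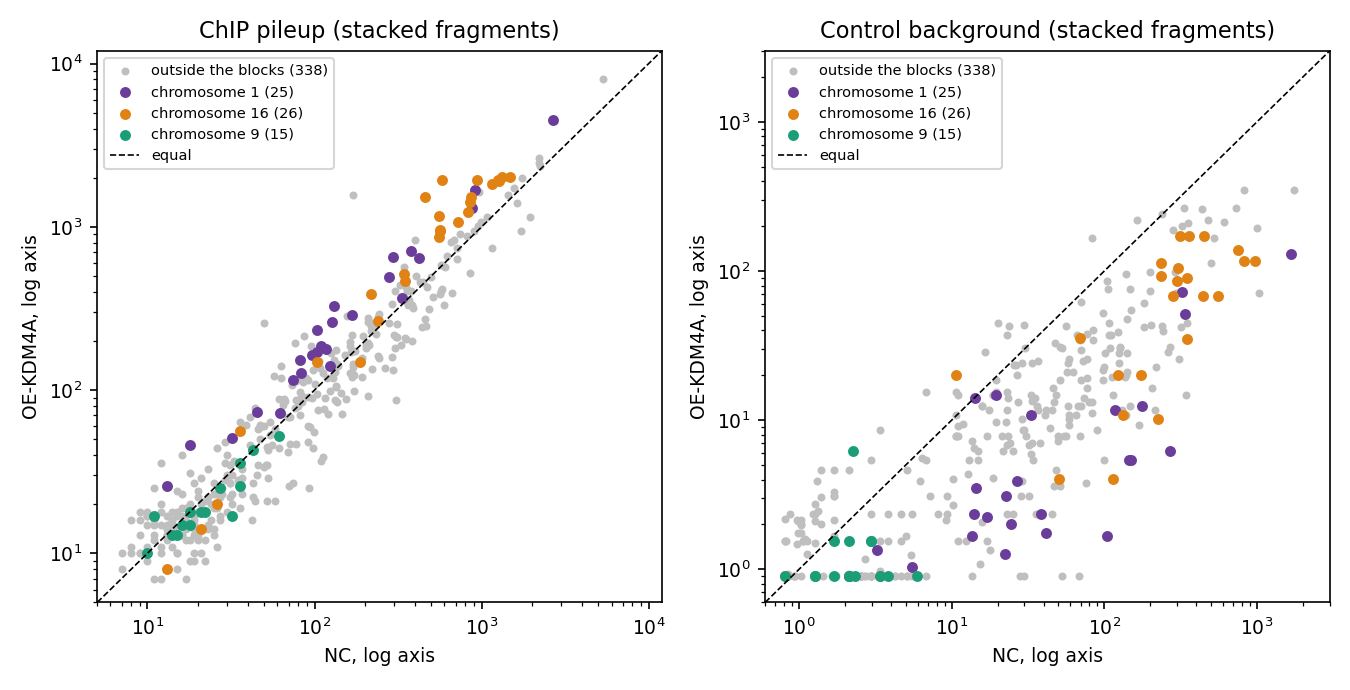
ChIP pileup (left) and control background (right) at the 404 regions called in both lists, NC on the x axis and OE-KDM4A on the y axis (stacked fragments, log scales), with the dashed line at equal values. Pileups of chromosomes 1 and 16 lie mostly above the line and those of chromosome 9 on or below it, while backgrounds of all 3 lie mostly below it.

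The strength of all block peaks, shared or not, followed the same split. Median fold enrichment was 2.98 in NC and 13.1 in OE-KDM4A on chromosome 1, 2.44 and 7.09 on chromosome 16, and 6.48 and 5.93 on chromosome 9. Over all other peaks the medians were 4.39 and 5.08, so NC peaks of chromosomes 1 and 16 had lower and OE-KDM4A peaks higher fold enrichment than elsewhere in their lists. The stretches of chromosomes 4 (3.39 and 7.87) and 10 (3.69 and 7.30) had the same split. The median background of NC block peaks was 26.8 on chromosome 1, 226.6 on chromosome 16 and 2.13 on chromosome 9, against 1.28 over all other peaks. In OE-KDM4A the medians were 1.68, 10.5 and 0.905. The lowest background of the list, 0.811 in NC and 0.905 in OE-KDM4A, was reached by 7 of 83 NC and 78 of 229 OE-KDM4A block peaks. Over the whole lists it was reached by 8.24% and 49.2%.

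Fewer block peaks lay near genes than in the lists as a whole. The blocks were chosen by position and hold gene-free stretches of 21.7, 17.7 and 10.4 Mb, so a low share can follow from that choice alone. Within 5 kb of a RefSeq gene of any kind were 7 NC peaks (8.43%) and 21 OE-KDM4A peaks (9.17%), against 50.0% and 46.4% of all peaks of the lists. None overlapped one of the 368 promoter windows of the blocks, where a count of 0 allows up to 3.61% of the NC peaks and 1.31% of the OE-KDM4A peaks. In the whole lists 1.63% and 0.634% of peaks overlapped one, so a difference from these shares was not detectable with this number of peaks. Of 148 protein-coding genes of the blocks, none had an NC peak in its span or within 5 kb, which allows up to 2.03%, and 3 had an OE-KDM4A peak (2.03%). Over all coding genes of the series, 2.45% had an NC peak and 5.34% an OE-KDM4A peak.

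The 3 genes were CD58, LOC112268044 and CNTNAP3B. CD58, which encodes the adhesion ligand of CD2 on T cells, had 1 peak inside its span on chromosome 1 (116534529 to 116534653, fold 5.48). CNTNAP3B, a contactin-associated protein gene of chromosome 9 with near-identical copies, had 2 (41945524 to 41945634, fold 4.72, and 41966615 to 41966727, fold 4.20). Of 92 genes in 21 families and single genes listed because they are known from these blocks, such as NBPF, NOTCH2, SRGAP2 and TP53TG3, 4 had an OE-KDM4A peak (4.35%) and 0 an NC peak, which allows up to 3.26%. Of RefSeq genes of any kind, 3.04% and 1.29% had one, so these shares are near the background. Beside CNTNAP3B these were ANKRD20A7P, FAM27C and FAM27E4, all on chromosome 9, and the last 2 shared 1 peak (61857023 to 61857172, fold 3.91).

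Distances of the clusters to coding genes varied. The peaks of the largest cluster, at 143 Mb of chromosome 1, lay 0.627 to 0.717 Mb from H3-7, a histone H3 gene, and the peak at 125182304 lay 3.72 Mb from the nearest one. On chromosome 16 the widest OE-KDM4A block peak, at 46398575, lay 177 kb from SHCBP1. At the left limit of chromosome 1 the first OE-KDM4A peak inside was the CD58 peak, 0.0345 Mb from the limit, and the nearest NC peak outside it, at 116475834 to 116476007 (fold 4.29), was 0.0241 Mb away.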

How the data were processed

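H3K9me3 ChIP-seq and input libraries were made from Ishikawa cells labelled NC and OE-KDM4A, 1 of each kind per condition. Trimmomatic, Bowtie 1.1.2, MACS2 2.1.0 and hg38 appear in the submitters' processing notes with neither settings nor roles. The deposited narrowPeak lists give 1 line per summit, with the authors' fold enrichment (a linear ratio), −log10 p and −log10 q per peak. The deposited score is 10 times the −log10 q. No source used here gives the read depth.

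Lines with equal start and end were counted as 1 peak with the values of its strongest summit, which removed 69 of 1234 NC and 402 of 4187 OE-KDM4A lines. MACS2 is known to add 1 to pileup and background before it takes their ratio, and to take p from the Poisson law. For 78 of 83 NC and 222 of 229 OE-KDM4A block peaks, a whole-number pileup with a background of at least 0.5 met the deposited −log10 p to within 0.001. Overlap means at least 1 bp. Shares have Clopper-Pearson intervals, and a count of 0 is given with the share that 3 counts would make. Genes come from RefSeq tables of GRCh38.p14, the assembly of hg38. No genome sequence was used, so the planned repeat content was left out. The regions, gene lists and comparisons were chosen with earlier results of these data known. The plan named the 5 peaks of highest −log10 q, the 2 widest and the 2 with most summits per block and list. It also named the 2 strongest found in 1 list only, and not all of these peaks are printed. Named genes are coding genes and listed families with a peak. Alternatives tried were stricter limits on q or fold, other ways of counting peaks and overlap, narrower blocks, and each chromosome left out. The steps were tested on simulated data, where 500 of 500 pileups were recovered. Shared regions and other peaks printed outside that rule were chosen after their values were seen. Scripts ran in Python 3.11.15 with scipy 1.17.1, pandas 2.3.3, numpy 2.4.6 and matplotlib 3.10.9.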

Additional observations from a re-analysis of the deposited data

How the results depend on the processing

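Of 91 recomputed values of 19 results, 52 stayed within the 95% interval of the reported value (for numbers of genes, within 1.5 times), 38 moved outside it and 1 changed sign; the cause was not tested. No paired analysis was possible because each condition has 1 library. The ratio of OE-KDM4A to NC peaks in the blocks (2.76) was 6.45 (4.34 to 9.89) at a fold enrichment of at least 5. With that limit it was 16.7 on chromosome 1 (7.39 to 46.5) and 12 on chromosome 16 (4.39 to 45.8). The ratio over the 3 blocks was 3.82 with every summit line counted and 2.07 without chromosome 1. It was 1.73 with peaks within 1 kb joined (1.52 on chromosome 1). The share of the list in the blocks was 13.5% (NC) and 12.6% (OE-KDM4A) with the −log10 q limit raised to 5, and 15.2% and 17.4% with 10. It was 5.24% and 4.65% in gene-free stretches widened by 1 Mb each way, and by construction lower without chromosome 1 (4.81% and 3.06%), 9 (4.98% and 4.73%) or 16 (4.46% and 4.31%). The OE-KDM4A share alone moved to 9.37% at a fold of at least 5, 8.57% with every summit line and 3.45% with joined peaks. The NC share overlapping OE-KDM4A was 88.1% and 92.0% with those limits, and 69.0% at a fold of at least 5. The OE-KDM4A share overlapping NC was 10.7% at a fold of at least 5, 39.7% within 1 kb and 36.6% with lists of equal length. Apart from the OE-KDM4A share within 1 kb (14.2%), whole-list shares of overlap under changed limits or list lengths were not computed. The median OE-KDM4A width was 225.5 and 279 bp, and its share with several summits 29.9% and 36.2%, with the −log10 q limits of 5 and 10. Most NC block peaks with a fold of at least 5 lay on chromosome 9. At that limit the NC share with several summits was 0% and the NC median gap 101.5 kb. There the median log2 differences at shared regions (OE-KDM4A minus NC) were 0.58 for fold, -1.09 for background and -0.10 for pileup, which is the change of sign, against 2.53, -2.07 and 0.62 as reported. With the gene span alone, 4 genes had an NC and 13 an OE-KDM4A peak, in place of 7 and 26. The lowest pileup of a block peak was 7 fragments in both lists, and the effect of read depth was not tested.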
